A study of Homo sapiens with 4 samples.

Results

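Apolipoproteins and the factor that loads them with lipid were examined in sorted fractions of Huh7, an established human hepatocellular carcinoma line. The 10 genes, of 18377 measured, were taken by symbol from a fixed list: APOA1, APOA2, APOA4, APOB, APOC3, APOE, APOH, APOM, APOD and MTTP. The list was chosen with earlier results of these data known. All 10 had at least 1 probe with exactly 1 gene symbol, and 4 of them had more than 1. The line had been separated by flow cytometry into CD133+ and CD133- cells in one sort and into ALDH+ and ALDH- cells in another. CD133 is the surface protein encoded by PROM1, and ALDH is aldehyde dehydrogenase. The series title frames the comparison as one of stem-like and other cells of this cancer. Each fraction was measured on 1 Affymetrix array, 4 arrays in all, with no treatment named in the labels. A value is a log2 level from robust multi-array averaging (RMA), and a difference is the positive minus the negative fraction of a sort. With 1 array per fraction no difference has a replicate check, an error or a p-value, and precision is limited by having so few arrays.

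Apolipoproteins are the protein parts of lipoproteins, the particles that carry lipid in plasma. In hepatocytes and enterocytes, the microsomal triglyceride transfer protein (MTTP) adds lipid to nascent apolipoprotein B in the endoplasmic reticulum, and the exchangeable apolipoproteins move between particles once these are secreted. Liver cells are known as a main source of APOA1, APOA2, APOB, APOC3, APOE, APOH and APOM, while APOA4 is best known from the small intestine and APOD, a lipocalin, is made in many tissues.

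The array medians ran from 4.92 to 5.04, and the correlation over all probes lay between 0.982 and 0.989 for the pairs of arrays. All 8 hepatocyte markers examined were above 4.98, the median of the whole table, on every array, so hepatocyte transcripts were present in each fraction; that median is used below as the expression floor. PROM1 differed by 3.68 in the CD133 sort, in the direction of the labels. In the ALDH sort PROM1 went the other way, at 7.11 in the ALDH-positive and 8.39 in the ALDH-negative fraction. That difference was -1.28, and 47 of 11879 genes were as low or lower. ALDH1A1 differed by 0.04 in the ALDH sort and 0 of 19 aldehyde dehydrogenase genes reached 2-fold there, so transcripts do not check those labels and the signs of the ALDH sort rest on the labels alone. In bulk RNA of a fraction, fewer cells with a transcript and less of it per cell cannot be told apart.

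In the CD133 sort, most liver apolipoproteins were lower in CD133-positive cells, while MTTP and APOD were higher. APOH was 2.08-fold lower, APOA1 1.72-fold, APOM 1.68-fold, APOB 1.61-fold, APOA2 1.38-fold, APOC3 1.36-fold and APOE 1.11-fold. MTTP was 1.34-fold higher and APOD 2.03-fold higher. APOA4 lay below the floor on both arrays of this sort and is counted in neither direction.

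A gene counted as above the floor in a sort when the brighter of the sort's arrays reached it, which 9 of the 10 did in the CD133 sort. Of these 9, 7 were lower and 2 higher, against 57.1% lower and 42.9% higher among 11591 genes above the floor. At 1.5-fold, 4 of the 9 were lower (APOA1, APOB, APOH and APOM) where 1.89% of all genes were, and 1 was higher (APOD) where 2.74% were. At 2-fold, APOH alone was lower, against 0.164% of all genes, and APOD alone was higher, against 0.716%. The median difference of the 9 was -0.47, beside -0.04 for all genes above the floor, whose middle 95% lay between -0.54 and 0.60. APOA2, APOC3, APOE and MTTP lay inside that range. APOD did so too when readings under the floor were set to it (0.17). APOD passed the floor through its brighter array alone, so its count is no more than a description. With a higher floor of 6.48, the 75th percentile of the table, the 8 genes left were those with bright signal on all arrays. Of these 8, 7 were lower where 62.7% of all such genes were, and the same 4 were lower at 1.5-fold where 1.34% were. The direction alone is thus shared by most bright genes of this sort, and the sizes stand further from the background than the direction does. Because the genes were chosen with earlier results of these data known, these shares describe them and give no independent support.

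**Figure D1:**
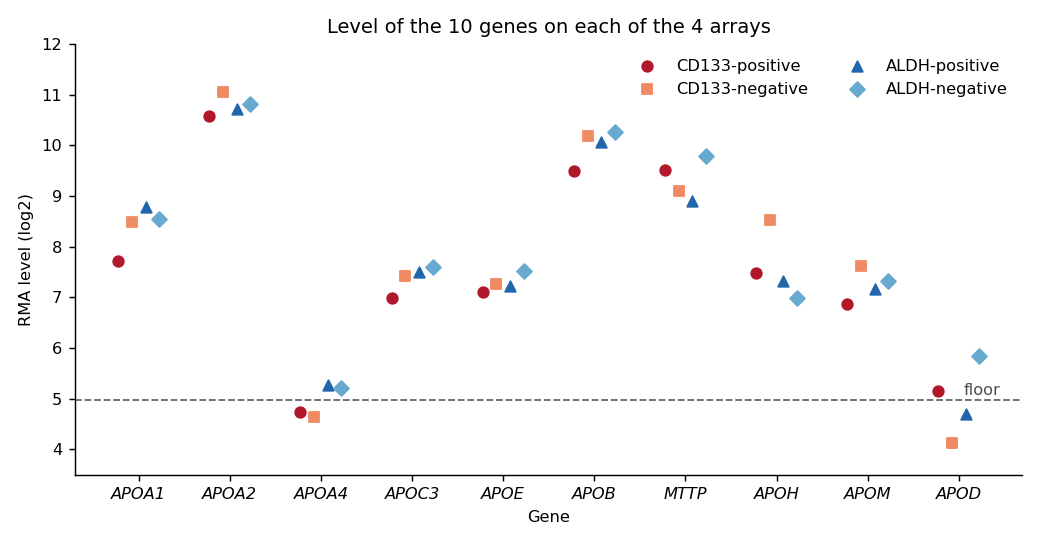
RMA level (log2, vertical axis) of each of the 10 genes (horizontal axis) on the 4 arrays, 1 point per array with no error bar, and a dashed line at the floor of 4.98. CD133-positive cells gave the lowest of the 4 points for 6 genes, and heights are comparable between arrays of a gene but not between genes.

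APOH encodes beta-2-glycoprotein I, a plasma protein that binds anionic phospholipids. Its level was 7.47 in the CD133-positive and 8.53 in the CD133-negative fraction, and 7.32 in the ALDH-positive and 6.98 in the ALDH-negative fraction. CD133-negative cells stood above the other fractions, which lay within 0.49 of each other. The difference was -1.05 in the CD133 sort, where 13 of 11591 genes were as low or lower, and 0.34 in the ALDH sort. The call at 2-fold was narrow: the difference was -0.99 after a second quantile normalization and -0.997 after loess, both just short of 2-fold.

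APOM encodes a lipocalin carried mainly on high-density lipoprotein, where it binds sphingosine-1-phosphate. Its level was 6.87 in the CD133-positive and 7.62 in the CD133-negative fraction, and 7.16 in the ALDH-positive and 7.33 in the ALDH-negative fraction. As for APOH, CD133-negative cells were highest, but here CD133-positive cells were lowest. The difference was -0.75 in the CD133 sort, where 74 genes were as low or lower, and -0.17 in the ALDH sort. The 3 probes of APOM held identical values and count as 1 measurement.

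APOA2, the second most abundant protein of high-density lipoprotein, spanned the narrowest range among the genes with a CD133 difference beyond -0.4. Its level was 10.6 in the CD133-positive and 11.0 in the CD133-negative fraction, and 10.7 in the ALDH-positive and 10.8 in the ALDH-negative fraction. The differences were -0.47 and -0.11 in the CD133 and ALDH sorts. CD133-positive cells were again lowest and CD133-negative cells highest, and 503 genes were as low or lower in the CD133 sort.

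The sequences before the start sites of APOH, APOM, APOA2 and MTTP are shown because these genes parted in the CD133 sort, the first 3 lower and MTTP higher in CD133-positive cells. RefSeq promoter entries of build GRCh38.p14 were matched for 6 of the 10 genes (APOA2, APOA4, APOE, APOH, APOM and MTTP), and not for APOA1, APOB, APOC3 and APOD. The 250 bases before each start are given 5′ to 3′ on the strand of the gene: chr17:66229416-66229665 on the minus strand for APOH, chr6:31655644-31655893 on the plus strand for APOM, chr1:161223629-161223878 on the minus strand for APOA2, and chr4:99563880-99564129 and chr4:99574574-99574823 on the plus strand for the 2 starts of MTTP. Capitals mark matches on either strand to 5 motifs: GTTAAT, which is one arm of the HNF1 site; AGGTCA, the half-site of many nuclear receptors; TGTTTAC, bound by forkhead factors; TATAAA, an element of core promoters; and GGGCGG, bound by Sp1.
APOH: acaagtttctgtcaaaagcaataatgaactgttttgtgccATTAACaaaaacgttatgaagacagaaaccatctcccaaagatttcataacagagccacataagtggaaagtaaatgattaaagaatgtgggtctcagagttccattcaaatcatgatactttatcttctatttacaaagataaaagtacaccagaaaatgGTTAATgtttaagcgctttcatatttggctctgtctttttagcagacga
APOM: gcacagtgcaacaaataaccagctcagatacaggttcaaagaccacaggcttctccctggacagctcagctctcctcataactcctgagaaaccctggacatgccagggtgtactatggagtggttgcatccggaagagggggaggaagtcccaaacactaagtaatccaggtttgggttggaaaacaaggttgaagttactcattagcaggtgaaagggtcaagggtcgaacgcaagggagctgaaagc
APOA2: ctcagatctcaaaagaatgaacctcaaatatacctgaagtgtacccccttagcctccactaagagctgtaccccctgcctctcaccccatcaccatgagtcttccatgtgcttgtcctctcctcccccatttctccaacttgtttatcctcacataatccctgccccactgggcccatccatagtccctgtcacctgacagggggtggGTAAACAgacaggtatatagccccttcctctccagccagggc
MTTP, first start: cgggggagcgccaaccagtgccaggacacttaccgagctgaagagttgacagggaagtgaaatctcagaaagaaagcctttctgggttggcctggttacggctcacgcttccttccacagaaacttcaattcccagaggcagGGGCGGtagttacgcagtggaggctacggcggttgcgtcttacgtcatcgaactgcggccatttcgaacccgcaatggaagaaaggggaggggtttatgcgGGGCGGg
MTTP, second start: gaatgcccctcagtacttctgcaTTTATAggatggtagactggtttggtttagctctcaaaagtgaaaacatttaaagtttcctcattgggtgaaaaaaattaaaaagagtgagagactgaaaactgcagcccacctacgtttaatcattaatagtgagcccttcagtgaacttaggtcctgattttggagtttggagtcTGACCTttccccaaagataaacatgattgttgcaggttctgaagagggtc

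GTTAAT or its reverse complement occurred at 2 places before APOH, beginning 210 and 49 bases before the start, and at none before the other genes matched, while 6.23% of 35116 promoters in the RefSeq table held it. A forkhead match began 42 bases before APOA2, and 2.98% of promoters held that motif. The first start of MTTP had 2 GGGCGG matches, a motif held by 42.6% of promoters and also found 2 times before the first start of APOE, which was lower in CD133-positive cells. In the window of that MTTP start, 57.2% of bases were G or C. The second start of MTTP had an AGGTCA match 50 bases upstream on the opposite strand, held by 12.1% of promoters, a TATAAA match far upstream, held by 10.7%, and fewer bases that are G or C than the first. APOH had 33.2% G or C, below the median of 58.0% over all promoters. These matches describe letters within the windows and are neither measured binding sites nor causes. The absence of a match before APOM says only that these letters are not in its window.

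APOA1, the main protein of high-density lipoprotein and the activator of cholesterol esterification in plasma, was lowest in CD133-positive cells. Its level was 7.72 in the CD133-positive and 8.50 in the CD133-negative fraction, and 8.79 in the ALDH-positive and 8.54 in the ALDH-negative fraction. CD133-positive cells stood below the other fractions, which lay within 0.29 of each other. The difference was -0.78 in the CD133 sort, where 62 genes were as low or lower, and 0.25 in the ALDH sort. A second, dimmer probe of APOA1 gave -0.55 and 0.30, which brings the CD133 difference to under 1.5-fold with the same order of positive and negative fractions.

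APOC3 encodes an inhibitor of lipoprotein lipase and of remnant uptake. Its level was 6.98 in the CD133-positive and 7.42 in the CD133-negative fraction, and 7.50 in the ALDH-positive and 7.60 in the ALDH-negative fraction. As for APOA1, CD133-positive cells stood below the rest. The differences were -0.44 and -0.10, and the second probe gave -0.44 and -0.03.

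APOA4, an apolipoprotein of intestinal particles, lay at the floor. Its level was 4.74 in the CD133-positive and 4.63 in the CD133-negative fraction, and 5.28 in the ALDH-positive and 5.22 in the ALDH-negative fraction. Both arrays of the CD133 sort were below the floor and both of the ALDH sort just above it. The difference in the ALDH sort was 0.06 with the brighter and -0.19 with the dimmer probe, so no direction is given.

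In the RefSeq gene order, APOA5, APOA4, APOC3 and APOA1 follow each other on chromosome 11. APOA5, an activator of triglyceride clearance, was 5.15 in the CD133-positive and 5.65 in the CD133-negative fraction, and 5.55 in the ALDH-positive and 5.79 in the ALDH-negative fraction. The 3 neighbours above the floor were each lowest in CD133-positive cells, with CD133 differences of -0.50 for APOA5, -0.44 for APOC3 and -0.78 for APOA1. In the ALDH sort they did not share a direction, at -0.24, -0.10 and 0.25.

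**Figure D2:**
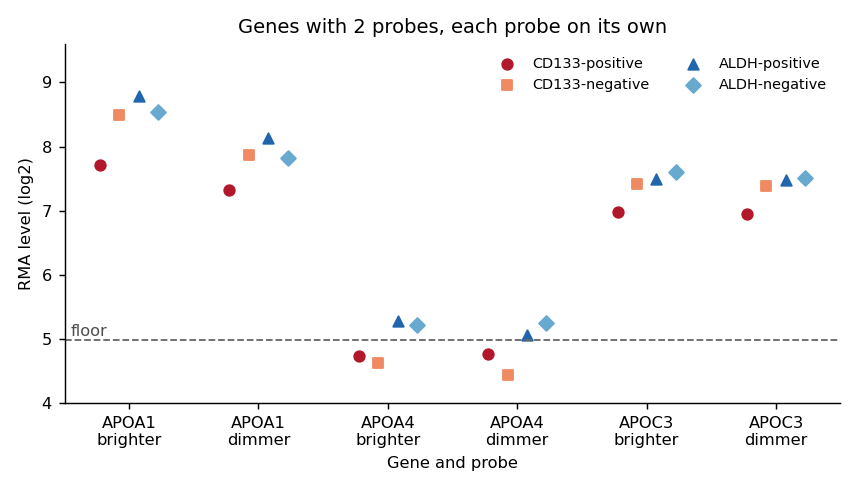
RMA level (log2, vertical axis) on the 4 arrays for each probe of APOA1, APOA4 and APOC3 (horizontal axis), with no error bar because each fraction has 1 array, and the floor of 4.98 as a dashed line. Both probes of APOA1 and both of APOC3 were lowest in CD133-positive cells, while those of APOA4 lay at the floor and disagreed in the ALDH sort.

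APOB, the structural protein of very-low-density and low-density lipoproteins, was lower in CD133-positive cells, opposite to its loading factor MTTP. The level of APOB was 9.50 in the CD133-positive and 10.2 in the CD133-negative fraction, and 10.1 in the ALDH-positive and 10.3 in the ALDH-negative fraction. CD133-positive cells were again below the other fractions, which lay within 0.20 of each other. The difference was -0.69 in the CD133 sort, where 105 genes were as low or lower, and -0.20 in the ALDH sort.

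MTTP was 9.52 in the CD133-positive and 9.10 in the CD133-negative fraction, and 8.91 in the ALDH-positive and 9.80 in the ALDH-negative fraction. ALDH-negative cells were highest and ALDH-positive cells lowest. The difference was 0.42 in the CD133 sort, where 687 of 11591 genes were as high or higher. In the ALDH sort it was -0.89, where 244 of 11879 genes were as low or lower. P4HB, the protein disulfide isomerase subunit that MTTP needs to fold and stay soluble, differed by -0.03 and 0.12. The 2 subunits of the transfer complex thus had unlike differences in both sorts.

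APOE, the ligand that lets remnant particles bind their hepatic receptors, differed little. Its level was 7.11 in the CD133-positive and 7.26 in the CD133-negative fraction, and 7.22 in the ALDH-positive and 7.52 in the ALDH-negative fraction. The differences were -0.15 and -0.30, both inside the middle 95% of all genes of the sort. APOC1, which follows APOE on chromosome 19 and encodes an inhibitor of lipoprotein uptake, gave -0.28 and -0.11.

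APOD had the widest range over the 4 arrays among the 10 genes, 1.71, around the floor. Its level was 5.16 in the CD133-positive and 4.13 in the CD133-negative fraction, and 4.70 in the ALDH-positive and 5.85 in the ALDH-negative fraction. One array of each sort was below the floor. The difference was 1.02 for CD133 and -1.15 in the ALDH sort. When readings under the floor were set to it, a step chosen after seeing the data, these became 0.17 and -0.86, both short of 2-fold. The CD133 difference alone also fell short of 2-fold after median centring (0.96), a second quantile normalization (0.93) and loess (0.96).

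In the ALDH sort the liver apolipoproteins differed little, and MTTP and APOD were lower in ALDH-positive cells. MTTP was 1.85-fold and APOD 2.21-fold lower. Among the other 8 genes the differences ran from -0.30 for APOE to 0.34 for APOH. All 10 genes were above the floor in this sort. Of these, 7 were lower, APOA1 and APOH were higher, and APOA4 had no settled direction, against 51.5% lower and 48.5% higher among 11879 genes. At 1.5-fold, 2 of 10 were lower where 6.6% of all genes were, and 0 were higher where 4.15% were. At 2-fold, APOD alone was lower where 1.3% of all genes were, and 0 were higher where 0.278% were. The median of the 10 was -0.14, beside -0.01 for all genes, whose middle 95% lay between -0.84 and 0.67. Only MTTP and APOD lay outside that range.

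**Figure D3:**
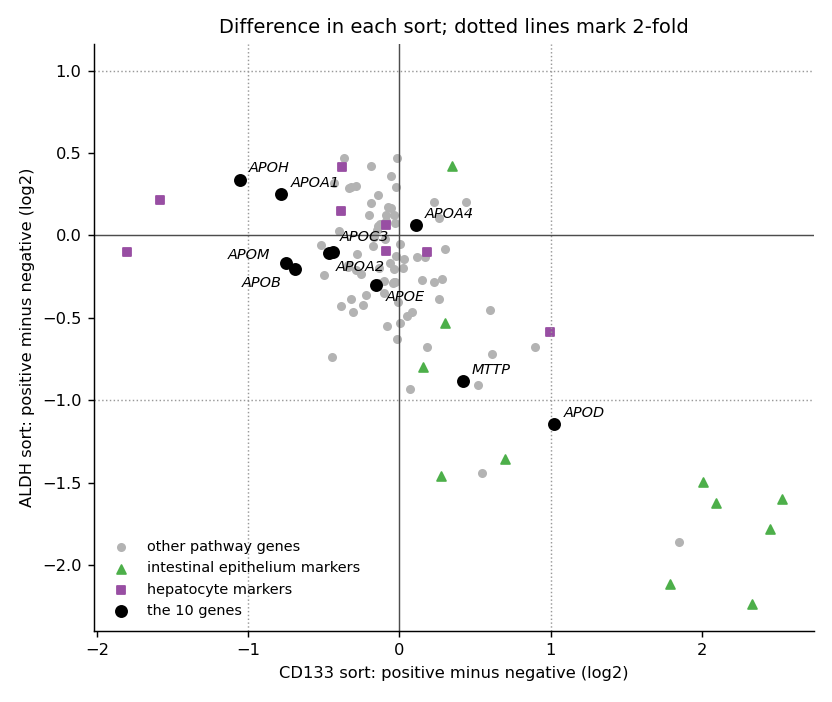
Difference in the CD133 sort (log2, horizontal axis) against that in the ALDH sort (log2, vertical axis), 1 point per gene with no error bar; black points are the 10 genes, grey points other pathway genes, triangles intestinal epithelium markers and squares hepatocyte markers, with all but APOA4 above the floor in both sorts. The 7 liver apolipoproteins lie left of 0 and between -0.30 and 0.34 on the vertical axis, while MTTP and APOD lie at lower right, on the side of most intestinal markers.

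Across the 4 arrays, CD133-positive cells gave the lowest level of 6 of the 10 genes (APOA1, APOA2, APOB, APOC3, APOE and APOM) and the highest of 0. Among 12177 genes above the floor on any array, CD133-positive cells were lowest for 17.2% and highest for 17.3%. ALDH-negative cells were highest for 5 of the 10 (APOB, APOC3, APOE, APOD and MTTP), against 24.2% of all genes. Levels of the same marker status in different sorts were set side by side, although these differences share their arrays with those of the sorts. Between the positive fractions, CD133 minus ALDH, APOA1 differed by -1.07 and was the 1 gene of the 10 at 2-fold lower, where 0.127% of 11838 genes were, and 0 were higher, where 0.524% were. Between the negative fractions, APOH differed by 1.55 and APOD by -1.71. They were the only members at 2-fold in each direction, where 1.21% of 11619 genes were higher and 1.86% lower. For APOD the gap was -0.86 against the floor, short of 2-fold. For APOH this gap between the negative fractions was wider than its difference within either sort.

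Markers of other cell types moved with some of these values. The mean log2 level of 12 intestinal epithelium markers was 7.27 in the CD133-positive and 6.01 in the CD133-negative fraction, and 6.64 in the ALDH-positive and 7.84 in the ALDH-negative fraction, and FABP2 was below the floor on all arrays. Of the 11 markers above the floor, 11 were higher in the CD133-positive fraction (median 1.79), where 42.9% of all genes were. In the ALDH-positive fraction 10 of the 11 were lower (median -1.49), where 51.5% of all genes were. The marker lists were chosen with earlier results of these data known, so these counts are descriptions and no independent readout. The median of 1.79 is the value of LCT, which, like SLC26A3, was below the floor in the CD133-negative fraction. Against the floor LCT fell from 3.46-fold to 2.38-fold higher and SLC26A3 from 5.02-fold to 2.83-fold, so that median would be smaller. MTTP and APOD had the same direction as most intestinal markers in both sorts, and the part of these markers in the result was not tested. The mean of the 8 hepatocyte markers was 10.1, 10.5, 10.2 and 10.2 on the arrays in the same order, with 6 of 8 lower in CD133-positive cells, where 57.1% of all genes were, and 4 of 8 lower in ALDH-positive cells, where 51.5% were. Haptoglobin (HP, -1.80) and fetuin A (AHSG, -1.58) were at 2-fold lower in CD133-positive cells, further than any of the 10 genes, and transthyretin (TTR) went the other way at 0.995. The medians of the 8 were -0.23 and -0.01, and their part in the lower apolipoprotein levels was not tested. Below the floor on all arrays were 3 of 5 leukocyte markers (PTPRC, CD3E and ITGAM), 2 of 6 fibroblast and stellate markers (DCN and LUM) and 3 of 5 endothelial markers (VWF, KDR and TEK). The other markers of the first lists, CD14, CD68, COL1A1, COL1A2, COL3A1 and PDGFRB, were above it on every array. CD14 differed by -0.29 and 0.42 in the CD133 and ALDH sorts, and CD68 by 0.07 and -0.77. PECAM1 and CDH5 were above the floor in the ALDH-negative fraction alone. The mean log2 level over the arrays ran from 4.74 to 4.91 for the leukocyte list, from 4.63 to 4.86 for the fibroblast and stellate list and from 3.84 to 4.31 for the endothelial list.

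Both APOH and APOD reached 2-fold in a sort, and for each the genes with the nearest pair of differences were found among the 11293 genes that passed the floor in each sort, by Euclidean distance. Nearest to APOH were the acute-phase protein ORM1 (-1.11 and 0.35, distance 0.06), whose close paralog can share probe signal, the mitochondrial methionyl-tRNA synthetase MARS2 (-1.06 and 0.43) and the secretory pathway kinase FAM20C (-0.93 and 0.37). Nearest to APOD were the trypsinogen PRSS3 (1.05 and -1.15, distance 0.02), the galectin LGALS3 (0.97 and -1.13) and the CDP-diacylglycerol synthase CDS1 (1.04 and -1.21). The pair of APOD rests on an array below the floor in each sort; against the floor it is 0.17 and -0.86, so its neighbours are uncertain. With 4 arrays, many genes can lie this close.

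The medians of the other pathway lists in the CD133 sort were nearer to 0 than that of the 10 genes. The CD133 difference of CUBN exceeded each of the 10 in size, but its CD133-negative value was below the floor. Against the floor it was 0.76, smaller in size than those of APOH (-1.05) and APOA1 (-0.78). The counts of lower genes that follow stand against 57.1% of all genes lower for CD133 and 51.5% for ALDH. Of 15 other apolipoproteins listed, 12 were analysed and 5 were above the floor in the CD133 sort, with 4 lower and a median of -0.29. In the ALDH sort 4 of 7 were lower with a median of -0.11. APOA5 and APOO, a component of the mitochondrial inner membrane despite its name, had the largest CD133 differences at -0.50 and -0.39. In the ALDH sort APOO (-0.43) and LPA (0.40), the apolipoprotein of lipoprotein(a), differed most. LPA was below the floor in the ALDH-negative fraction and differed by 0.20 against the floor, less than CLU at 0.30. None of these genes reached 2-fold.

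Genes of particle assembly and secretion showed no member at 2-fold in either sort. Of the 21 above the floor, 17 were lower in the CD133-positive fraction (median -0.06) where 57.1% of all genes were, and 15 in the ALDH-positive fraction (median -0.20) where 51.5% were. The medians of all genes were -0.04 and -0.01, so that of the CD133 sort was near the background. It was -0.13 after median centring, -0.03 after a second quantile normalization and -0.01 after loess. TM6SF2, a membrane protein needed for lipidation of very-low-density lipoprotein, differed by 0.52 and -0.91 and so had the directions of MTTP. SAR1B, the GTPase of vesicles that carry lipoprotein out of the endoplasmic reticulum, differed by 0.07 and -0.93. CIDEB, a lipid droplet protein of particle lipidation, was lower in both, at -0.45 and -0.74, and was below the floor in both positive fractions. Against the floor its differences were -0.32 and -0.60.

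Among receptors and uptake factors, CUBN was the only gene at 2-fold. CUBN encodes cubilin, an endocytic receptor that binds APOA1 and vitamin B12 with intrinsic factor. Its level was 5.74 in the CD133-positive and 3.89 in the CD133-negative fraction, and 4.72 in the ALDH-positive and 6.58 in the ALDH-negative fraction, and it differed by 1.85 and -1.86. The dimmer array of each sort was below the floor, and against the floor the differences were 0.76, short of 2-fold, and -1.59. Of 9 genes of this list above the floor, 3 were lower in the CD133-positive fraction (median 0.02, but -0.04 after median centring), and 8 of 10 were lower in the ALDH-positive fraction (median -0.24).

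Genes of plasma remodelling and of cholesterol efflux held no member at 2-fold. For remodelling, 8 of 12 were lower in CD133-positive and 7 of 12 in ALDH-positive cells, with medians of -0.06 and -0.12. The proteinase BMP1 (0.60), which cleaves the APOA1 proprotein and whose dimmer probe gave 0.07, and the esterase PON3 (-0.52), carried on high-density lipoprotein, differed most in the CD133 sort, and the phospholipid transfer protein PLTP (-0.53) and the endothelial lipase LIPG (-0.49) in the ALDH sort. For efflux, 4 of 7 were lower in CD133-positive and 6 of 7 in ALDH-positive cells, with medians of -0.04 and -0.17. The transporters ABCA7 (0.44) and NPC1 (-0.29) differed most in the CD133 sort, and the sterol transporter subunits ABCG5 (-0.68) and ABCG8 (-0.28) in the ALDH sort.

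Of 30 transcription regulators of apolipoprotein genes listed, 24 were analysed. In the CD133 sort 15 of 21 above the floor were lower, where 57.1% of all genes were, with a median of -0.15, and in the ALDH sort 12 of 22 were lower, near the 51.5% of all genes, with a median of -0.05 that became 0.01 after a second quantile normalization. HNF4G, a nuclear receptor of liver and intestine, was the only one at 2-fold. Its level was 7.02 in the CD133-positive and 6.47 in the CD133-negative fraction, and 6.24 in the ALDH-positive and 7.68 in the ALDH-negative fraction. The differences of 0.55 and -1.44 had the signs of those of MTTP.

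**Figure D4:**
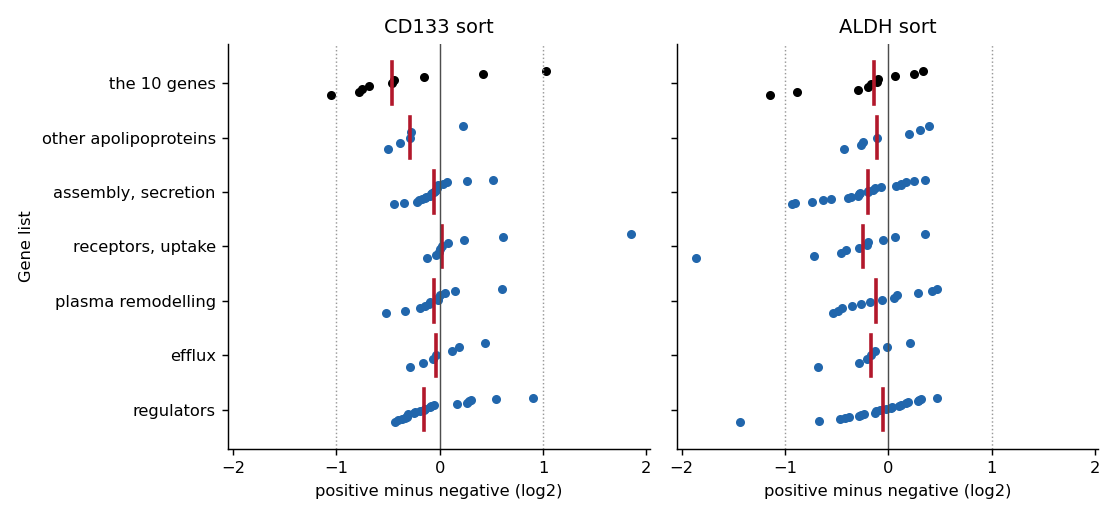
Difference of each gene above the floor (log2, horizontal axis) by gene list (vertical axis) in the CD133 and ALDH sorts, 1 point per gene with no error bar, a red line at each list's median and dotted lines at 2-fold. In the CD133 sort the medians were -0.47 for the 10 genes (9 plotted) and between -0.29 and 0.02 for the other lists, and in the ALDH sort all medians lay between -0.24 and -0.05.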

How the data were processed

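Total RNA of 4 sorted Huh7 fractions was taken with Trizol and biotin-labelled, per the labels' protocols. The authors deposited RMA values, per the submitters' processing notes. The deposited values are on a log2 scale, as judged from their span of 0.556 to 13.5. Software, version, build and any later filter are not given in the sources used here. RMA equalizes the distributions of the arrays, which hides a change common to most genes, and it shrinks differences of dim probes.

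Of 28869 probes, 19310 had exactly 1 symbol in the platform annotation, 1752 several and 7807 none there. Where a gene had several probes, the brightest on average was used. Differences were counted at 2-fold and 1.5-fold with no test, since each fraction has 1 array. A fit that treats the CD133 and ALDH sorts as replicates was not made. Named beyond the 10 genes were list members at 2-fold, otherwise the 2 with the largest difference per sort, and the 3 genes nearest to each member at 2-fold; P4HB, APOC1, the neighbours on the chromosome and the genes under other observations were chosen after their values were seen. The members and lists were chosen with earlier results of these data known. The alternatives were median centring, a second quantile normalization, loess (span 0.4), the mean over probes, dropping the floor, setting it at the 75th percentile, and 1.5-fold; raising dim values to the floor and using the dimmest probe were chosen after seeing the data. The scripts were tested on simulated data. Python 3.11.15, pandas 2.3.3, statsmodels 0.14.6 and matplotlib 3.10.9 were used.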

Additional observations from a re-analysis of the deposited data

Results flagged for a closer look

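In 4 of the 9 genes above the floor in both sorts, the differences of the sorts had opposite signs, as they did in 48.5% of 11293 genes, so the share of opposite signs was near that of all genes. The ALDH difference minus the CD133 difference was 1.03 for APOA1, 1.39 for APOH, -2.17 for APOD and -1.30 for MTTP. Among the other pathway genes named, the 2 at 2-fold had opposite signs too, with -3.71 for CUBN and -1.99 for HNF4G. APOD and CUBN passed the floor through 1 array of each sort, and with values raised to the floor theirs were -1.03 and -2.35. Each sort has 1 pair of arrays, and the difference between the sorts was not tested.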

How the results depend on the processing

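No paired analysis was possible because each fraction has 1 array. Under the 6 alternatives that give each gene a value, 18 of the 20 differences of the 10 genes kept their sign, the exceptions being APOA4 in either sort. In the CD133 sort 2 genes were at 2-fold. This count was 1 with median centring, 0 with a second quantile normalization, 0 with loess, 1 with a floor at the 75th percentile, 1 with values raised to the floor and 5 at 1.5-fold. In the ALDH sort the 1 gene became 2 at 1.5-fold, 0 with a floor at the 75th percentile and 0 with values raised to the floor. The median of the 10 in the ALDH sort was -0.090 after a second quantile normalization. Between the negative fractions, 2 genes at 2-fold became 1 with values raised to the floor. The causes were not tested, except that the raised floor by its construction shortens the differences of APOD, which is dim. The efflux median of the CD133 sort was 0.04 without a floor, and that of the other apolipoproteins in the ALDH sort 0.09 with the higher one. Signal near the floor limits APOA4 and APOD.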

Other observations

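A few other genes of lipoprotein handling were chosen after their values were seen. LRP2, which encodes megalin, the receptor that internalizes cubilin and its ligands, was 6.62 in the CD133-positive and 6.01 in the CD133-negative fraction, and 6.57 in the ALDH-positive and 7.29 in the ALDH-negative fraction. It differed by 0.61 and -0.72 in the CD133 and ALDH sorts. CDX2, an intestinal homeobox factor, differed by 0.90 and -0.68. Clusterin (CLU), an apolipoprotein also called APOJ, differed by -0.29 and 0.30 and so had the signs of APOA1 and APOH. The differences of LRP2, CDX2 and CLU were all short of 2-fold.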
